A study of Mus musculus with 9 samples.

Results

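Antioxidant and glutathione enzymes were examined in mouse activated hepatic stellate cells (aHSCs). The set held 10 genes, namely Hmox1, Nqo1, Gclc, Gclm, Txnrd1, Srxn1, Gpx1, Gpx3, Gsta4 and Gstm1, of the 30869 gene symbols on the Illumina MouseWG-6 v2.0 bead array. Every probe with one of these symbols was taken, which gave 14 of the 45281 gene probes. All 10 genes had at least 1 probe above background on 3 or more arrays, and 13 of the 14 probes passed this filter, as did 20573 probes in all. The exception was 1 of the 2 Nqo1 probes.

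The study asked how aHSCs that differ in their level of the transcription factor WT1 relate to each other, and 9 arrays were used, 3 per group. All 9 samples were labelled as coming from male WT1GFP/+ mice of strain C57/Bl6, in which green fluorescent protein (GFP) is placed at 1 WT1 allele, so that every group shares the heterozygous allele. WT1-high (GFP high; replicates 1, 8 and 29) and WT1-intermediate cells (GFP low; replicates 1, 8 and 30) were sorted from livers injured chronically by intraperitoneal carbon tetrachloride, a hepatotoxin that liver cells turn into a free radical. WT1-negative cells (GFP negative; replicates 3, 11 and 14) began as quiescent cells of uninjured livers and were activated by culture on plastic for 7 days. The WT1-negative cells were also the only cultured ones and the only ones from uninjured livers, and their intensities were deposited apart. In a difference from them, WT1 status, culture, injury and array set therefore cannot be told apart. The signal of the biotin control probes was 2872 to 3134 on WT1-negative arrays and 4399 to 4876 on in vivo arrays. The 6 in vivo arrays came from 3 animals.

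Stellate cells store retinoids in the quiescent liver and turn into matrix-producing myofibroblasts on injury. Cells clear peroxides and reactive electrophiles chiefly with glutathione and thioredoxin, and many of the enzymes involved are induced by the transcription factor NRF2, which binds the antioxidant response element in promoters once it is released from its inhibitor KEAP1. Haem oxygenase 1 is induced by the same route and by haem, and is abundant in liver macrophages.

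Between 17253 and 19774 probes were detected per array. The stellate cell markers Dcn and Acta2 were detected on all 9 arrays, while Lrat, a retinoid-storing enzyme of stellate cells, did not pass the filter on detection. Dcn had its lowest mean in WT1-negative cells (10.95) and Acta2 its highest (13.01). The summed normalised intensity of 9 stellate cell markers was 17680 to 19402 on WT1-high, 17877 to 23120 on WT1-intermediate and 11850 to 14813 on WT1-negative arrays. The summed normalised intensity of 10 mesothelial markers was 35761 to 40096 on WT1-high, 20684 to 28644 on WT1-intermediate and 376 to 470 on WT1-negative arrays. That of 14 macrophage markers was 5137 to 8468, 15882 to 26704 and 44179 to 49421 in the same order, with Clec4f and Ptprc detected on no WT1-negative array. That of 9 hepatocyte markers was 619 to 2692, 815 to 2029 and 314 to 479, and 5 further ones, Alb among them, did not pass the filter. That of 10 endothelial markers was 1302 to 1706, 2238 to 2614 and 1415 to 1959. Single endothelial markers did not share this order. The WT1-negative mean was the highest for 5 of them (Pecam1, Kdr, Cdh5, Egfl7 and Emcn), and the WT1-intermediate mean for 5. For 7 T and NK cell markers the summed normalised intensity was 649 to 986, 581 to 1052 and 150 to 167. The part of other cell types in the results was not tested. In sorted populations, a change in the share of cells with a transcript and a change in its amount per cell cannot be told apart.

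The promoters of 7 of the 10 genes were matched by symbol to RefSeq promoter windows of the GRCm38.p6 build, which run from 250 bases before to 50 bases after the transcription start. These were searched on both strands for the core of the antioxidant response element, TGACNNNGC, and for a longer form that contains it and ends in a further A. Promoters of Hmox1, Gclc and Gsta4 were not analysed here. The core was found for Gclm, Txnrd1 and Srxn1, each time on the strand opposite to the gene, and in no window of Nqo1, Gpx1, Gpx3 or Gstm1. Of all 32851 windows, 12.4% held the core and 3.04% the longer form, which was found for Txnrd1 alone among these genes. The matches are shown because both a gene called against WT1-negative cells (Txnrd1) and genes not called (Gclm and Srxn1) held the core. Capitals mark the match, and all 3 genes lie on the plus strand.
Txnrd1, chr10:82859088-82859147: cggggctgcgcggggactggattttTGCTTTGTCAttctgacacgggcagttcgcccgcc
Gclm, chr3:122245398-122245456: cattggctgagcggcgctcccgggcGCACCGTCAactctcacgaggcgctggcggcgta
Srxn1, chr2:152105542-152105570: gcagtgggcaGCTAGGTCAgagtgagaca
The match began 93 bases before the start in Txnrd1 and 134 bases before it in Gclm, and at transcribed base 29 in Srxn1. Txnrd1 has 3 windows, of which only that at its second start held a match. A match of letters does not show binding, and the lack of one in these windows does not show that a gene has no such element elsewhere. The shares over all promoters are counted by window, of which the 7 genes had 10.

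Levels are given as log2 normalised intensity. A gene is counted by its brightest tested probe, and no probe's level is set against that of another probe. Differences were tested by limma with Benjamini-Hochberg adjustment over all 20573 probes, with 0.05 as the threshold for a call on the adjusted p. WT1-high and WT1-intermediate cells did not differ by this test in any of the 10 genes, where 3.55% of all probes (730) were called. With the animals as a fixed block 1656 probes were called, and with a random replicate block 1752, still with none of the 10 genes among them. An unadjusted p under 0.05 was reached by Gsta4 only (0.0352). All 10 genes overlapped between these groups, where 20.1% of all probes did not. Against WT1-negative cells, 6 of the 10 genes were called in WT1-high cells (59.6% of all probes) and 5 in WT1-intermediate cells (58% of all probes), so that the share among these genes was close to that over the array. Gclc, Txnrd1, Gsta4 and Gstm1 were higher and Nqo1 lower in both WT1-positive groups, and Hmox1 was lower in WT1-high cells. The 4 genes called higher compare with 26.5% of all probes in the first comparison and 24.4% in the second. The 2 called lower in the former compare with 33.1%, and the 1 in the latter with 33.6%. Gstm1 was counted as higher by its brighter probe, while its dimmer probe was called lower in both comparisons. Counted by the dimmest tested probe of each gene, 3 were called higher and 3 lower in WT1-high cells. In WT1-intermediate cells 3 were then called higher and 2 lower. In 7 of the 10 genes (Hmox1, Nqo1, Gclc, Txnrd1, Gpx1, Gsta4 and Gstm1) the WT1-high arrays did not overlap with the WT1-negative ones, as in 68.4% of all probes. In 6 of the 10, the same genes without Gpx1, the WT1-intermediate arrays did not, as in 65.5% of all probes. Both comparisons use the same 3 WT1-negative arrays. Over the 10 genes, the log2 difference from WT1-negative cells had a median of 0.12 in the WT1-high group (-0.10 over all probes) and of 0.35 in the WT1-intermediate group (-0.13 over all probes). The median was -0.0031 between the WT1-positive groups, where that of all probes was 0.05.

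**Figure D1:**
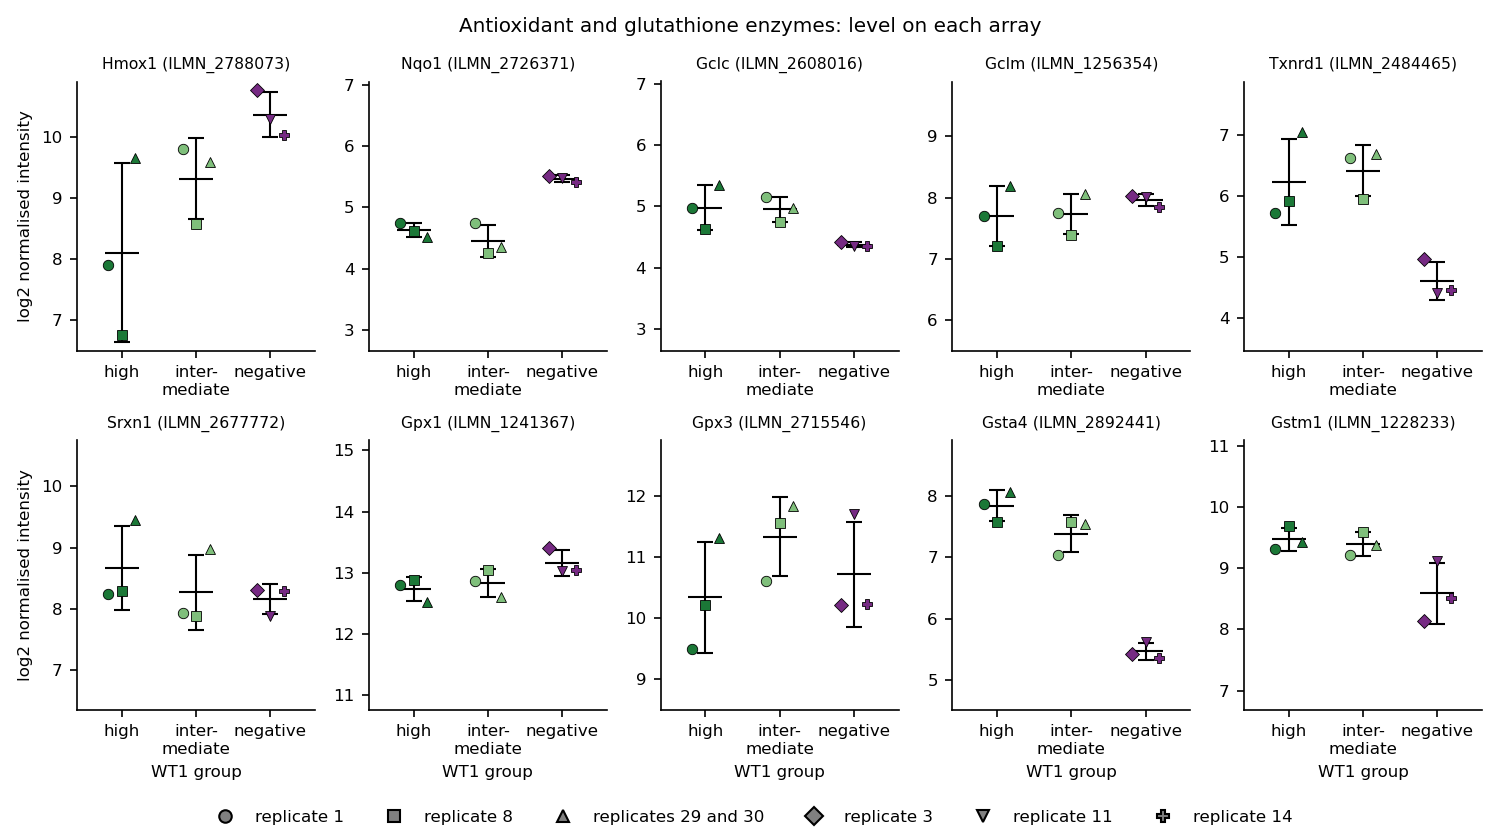
Log2 normalised intensity of the brightest probe of each of the 10 genes (vertical axis, each panel spanning the same range) on each array of the 3 groups (horizontal axis). Points are arrays, shaped by replicate number, and bars are mean ± SD (n = 3). Gsta4 and Txnrd1 are higher on every in vivo array than on any WT1-negative array, Nqo1 is lower, and Hmox1 spans 6.76 to 9.65 within the WT1-high group.

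Glutathione synthesis starts with glutamate-cysteine ligase, whose catalytic subunit is encoded by Gclc and whose modifier subunit is encoded by Gclm. Gclc (ILMN_2608016, chromosome 9) had levels of 4.97, 4.63 and 5.35 in WT1-high cells and 5.15, 4.74 and 4.98 in WT1-intermediate cells. In WT1-negative cells it was at 4.42, 4.35 and 4.35. Every in vivo array lay above every WT1-negative array, but none of the latter was above background, so the difference is a bound. Set against the lowest level counted as above background, the mean of Gclc was higher by at least 1.30-fold in WT1-high cells (adjusted p of the difference 0.0165). In WT1-intermediate cells it was higher by at least 1.28-fold (0.0209; limma, Benjamini-Hochberg). These bounds leave out the spread between arrays. The 95% confidence intervals of the log2 differences were 0.19 to 1.03 and 0.17 to 1.00. Gclc passed the filter on in vivo arrays alone. Before correction its intensities were 99.6, 108 and 109 on WT1-high, 92.2, 97.4 and 83.5 on WT1-intermediate and 97.3, 94.9 and 96.9 on WT1-negative arrays, so the order of the groups came with the background correction and normalisation. The first call was lost without WT1-high replicate 29 (adjusted p 0.0632, limma, Benjamini-Hochberg). The second was lost without WT1-intermediate replicate 1 (0.0677), WT1-negative replicate 11 (0.0542) or WT1-negative replicate 14 (0.0582), and under other normalisations.

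Gclm (ILMN_1256354, chromosome 3) was well above background on all arrays. It had levels of 7.70, 7.21 and 8.18 in WT1-high, 7.75, 7.39 and 8.05 in WT1-intermediate and 8.03, 8.00 and 7.85 in WT1-negative cells. The 3 groups overlapped, and the WT1-negative arrays lay within the range of the in vivo ones. The log2 difference from WT1-negative cells was -0.26 (95% confidence interval -0.79 to 0.27) in WT1-high and -0.23 (-0.76 to 0.30) in WT1-intermediate cells, and neither was called. In the second comparison, median scaling gave a call for lower Gclm (-0.94, with an adjusted p of 0.00202 by limma with Benjamini-Hochberg adjustment). The difference between the subunits was not tested.

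Txnrd1 encodes thioredoxin reductase 1, a selenoprotein that keeps cytosolic thioredoxin reduced. Its probe (ILMN_2484465, chromosome 10) had levels of 5.72, 5.93 and 7.04 in WT1-high and 6.61, 5.94 and 6.69 in WT1-intermediate cells. In WT1-negative cells it was at 4.97, 4.41 and 4.46, with 1 of 3 arrays above background. Every in vivo array lay above every WT1-negative array. Txnrd1 was 3.06-fold higher in WT1-high (log2 difference 1.61 ± 0.33, SE; adjusted p 0.00136) and 3.49-fold higher in WT1-intermediate cells (1.80 ± 0.33; 0.000694, both limma, Benjamini-Hochberg). The low level in WT1-negative cells makes these folds uncertain in size.

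Srxn1 encodes sulfiredoxin, which restores overoxidised peroxiredoxins. Its brightest probe (ILMN_2677772, chromosome 2) had levels of 8.24, 8.29 and 9.45 in WT1-high, 7.94, 7.89 and 8.98 in WT1-intermediate and 8.31, 7.88 and 8.29 in WT1-negative cells. WT1-high replicate 29 and WT1-intermediate replicate 30 stood above the other 7 arrays. The other Srxn1 probes had the same feature. ILMN_2667346 was at 8.22 and 7.62 on these arrays and between 6.47 and 7.45 elsewhere. ILMN_1229994 was at 7.45 and 7.01 on them and between 5.74 and 6.54 elsewhere. None of the 3 probes was called in any comparison, with log2 differences of 0.50, 0.18 and 0.69 for WT1-high and 0.11, -0.37 and 0.37 for WT1-intermediate against WT1-negative cells. Without WT1-high replicate 1, ILMN_1229994 was called higher for WT1-high against WT1-negative (1.05, adjusted p 0.0293, limma, Benjamini-Hochberg). With both high arrays left out, ILMN_2667346 was called lower for WT1-intermediate against WT1-negative (-0.75, adjusted p 0.0115, limma, Benjamini-Hochberg).

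The glutathione peroxidases reduce hydrogen peroxide and lipid peroxides, Gpx1 being the main cytosolic and Gpx3 the secreted form. Gpx1 (ILMN_1241367, chromosome 9) had levels of 12.80, 12.89 and 12.52 in WT1-high, 12.87, 13.04 and 12.60 in WT1-intermediate and 13.41, 13.02 and 13.04 in WT1-negative cells. All WT1-high arrays lay below all WT1-negative arrays by a small margin, and WT1-intermediate arrays overlapped with them. The log2 difference of -0.42 (95% confidence interval -0.81 to -0.03) in WT1-high cells had an adjusted p of 0.0594 (limma, Benjamini-Hochberg). It was called with replicates by label numbers as a random block (adjusted p 0.0426, limma, Benjamini-Hochberg) and without background correction (0.0343). It was also called with cyclic loess (0.0426) and with an offset of 50 (0.0421), so it stood at the edge of the threshold. Gpx1 differed from WT1-negative by -0.32 (-0.71 to 0.07) in WT1-intermediate cells, which was not called, but was under median scaling (-0.69; adjusted p 0.0482, limma, Benjamini-Hochberg).

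Gpx3 (ILMN_2715546) varied most within groups after Hmox1. Its levels were 9.50, 10.22 and 11.31 in WT1-high, 10.61, 11.55 and 11.84 in WT1-intermediate and 10.22, 11.70 and 10.23 in WT1-negative cells. All groups overlapped, and in each animal the WT1-high array was below its WT1-intermediate partner. These within-animal log2 differences were -1.10 for replicates 1, -1.33 for replicates 8 and -0.53 for replicates 29 and 30. The mean difference of -0.99 (95% confidence interval -2.08 to 0.11) was not called (adjusted p 0.349, limma, Benjamini-Hochberg).

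Glutathione transferases conjugate glutathione to electrophiles, and Gsta4 prefers 4-hydroxynonenal and related products of lipid peroxidation. Gsta4 (ILMN_2892441, chromosome 9) had levels of 7.88, 7.57 and 8.07 in WT1-high, 7.05, 7.58 and 7.54 in WT1-intermediate and 5.42, 5.61 and 5.36 in WT1-negative cells. The gap between the in vivo and the WT1-negative arrays was wider than the spread of any group. Gsta4 was 5.20-fold higher in WT1-high (log2 difference 2.38 ± 0.19, SE; adjusted p 1.32e-06) and 3.80-fold higher in WT1-intermediate cells (1.93 ± 0.19; 7.93e-06, both limma, Benjamini-Hochberg). Both calls held under every alternative run. Between the WT1-positive groups it differed by 0.45 (95% confidence interval 0.04 to 0.87), which was not called after adjustment (0.247, limma, Benjamini-Hochberg).

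Gstm1 is a mu-class transferase of broad substrate range, and its 2 probes ran in opposite directions. The first 30 bases of these 50-base oligos are shown because the direction of the gene depends on which is read, and no reference transcript was used to place them.
ILMN_1228233: cacgcttcctagaattaccccgatggtcaa
ILMN_2626491: cagggttgggagggacccgctgttttgtcc
The brighter, ILMN_1228233 (chromosome 3), had levels of 9.32, 9.68 and 9.43 in WT1-high, 9.21, 9.60 and 9.38 in WT1-intermediate and 8.14, 9.13 and 8.52 in WT1-negative cells. Every in vivo array was above every WT1-negative array, with WT1-negative replicate 11 close to the lowest of them. It was 1.84-fold higher in WT1-high (adjusted p 0.00673) and 1.74-fold higher in WT1-intermediate cells (0.0116; limma, Benjamini-Hochberg). The second call was lost without WT1-negative replicate 3 (adjusted p 0.0529, limma, Benjamini-Hochberg) and under median scaling (0.858), which also lost the first (0.0607).

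The dimmer Gstm1 probe, ILMN_2626491, was at 4.56, 4.59 and 4.33 in WT1-high, 4.56, 4.65 and 4.24 in WT1-intermediate and 5.13, 5.28 and 5.56 in WT1-negative cells. It was above background on 2 of 3 arrays in each WT1-positive group and on all WT1-negative arrays, and every in vivo array lay below every WT1-negative one. Its log2 difference was -0.83 (adjusted p 0.00149) for WT1-high and -0.84 (0.00145) for WT1-intermediate arrays (limma, Benjamini-Hochberg). A direction for Gstm1 therefore depends on the probe, and Gstm1 shares much of its sequence with other mu-class genes, so that cross-hybridisation of either probe could not be assessed.

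Nqo1 encodes a quinone reductase that uses NADPH, and is widely used as a readout of NRF2 activity. Its tested probe (ILMN_2726371) was dim, at 4.75, 4.62 and 4.52 in WT1-high, 4.74, 4.25 and 4.35 in WT1-intermediate and 5.52, 5.48 and 5.42 in WT1-negative cells. All in vivo arrays lay below all WT1-negative arrays, and 2 of 3, 1 of 3 and 3 of 3 arrays of the groups were above background. Nqo1 was 1.79-fold lower in WT1-high (log2 difference -0.84 ± 0.16, SE; adjusted p 0.000852) and 2.03-fold lower in WT1-intermediate cells (-1.02 ± 0.16; 0.00024, both limma, Benjamini-Hochberg). The signal near background makes these folds uncertain in size. The other Nqo1 probe, ILMN_2766386, lay between 4.16 and 4.51 and was above background on no array.

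**Figure D2:**
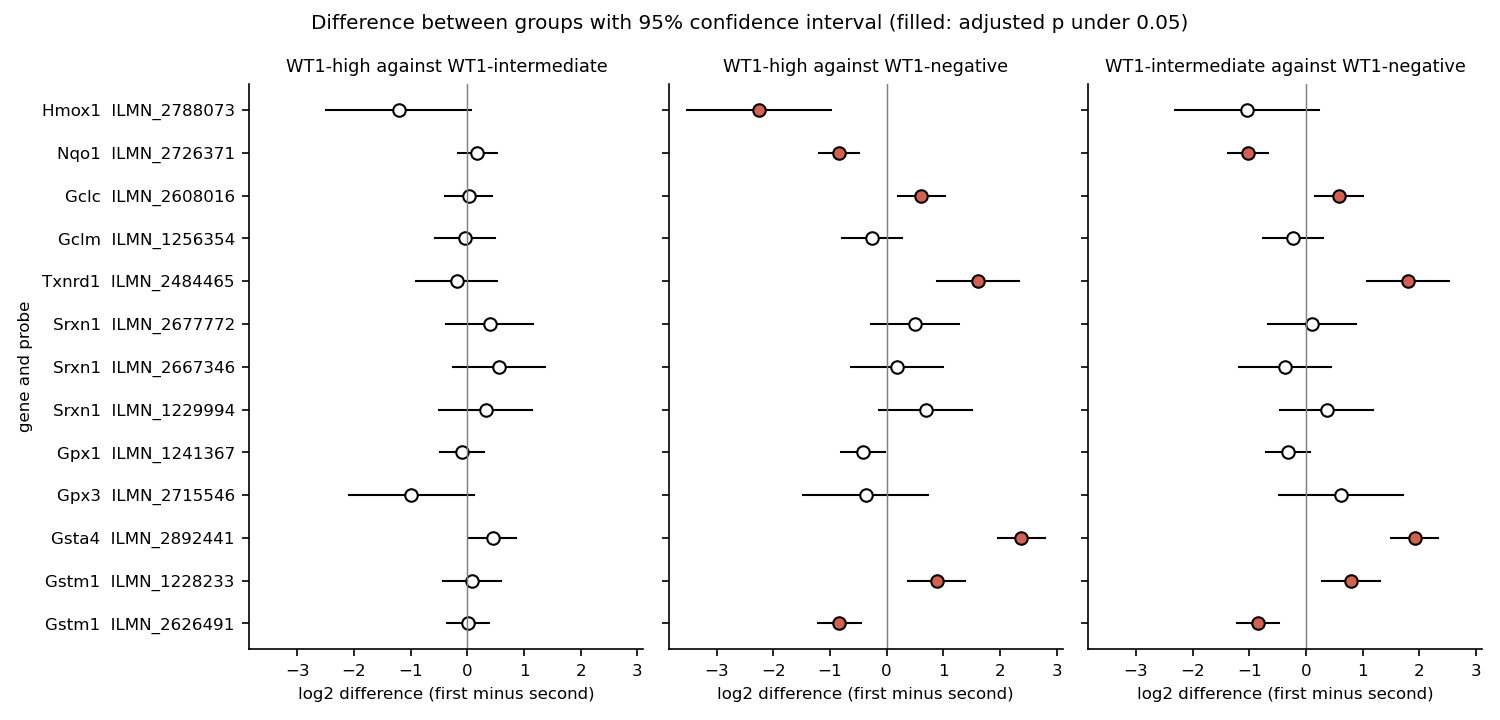
Log2 difference between groups (horizontal axis, first group minus second) for the 13 tested probes of the 10 genes (vertical axis), in the 3 comparisons. Points are estimates, lines are 95% confidence intervals and filled points have an adjusted p under 0.05 by limma. No point is filled between the WT1-positive groups, and the 2 Gstm1 probes lie on opposite sides of 0 against WT1-negative cells.

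Hmox1 encodes haem oxygenase 1, which degrades haem to biliverdin, iron and carbon monoxide. It had the largest spread of the 10 genes (ILMN_2788073, chromosome 8). Its levels were 7.91, 6.76 and 9.65 in WT1-high, 9.79, 8.57 and 9.59 in WT1-intermediate and 10.75, 10.30 and 10.03 in WT1-negative cells. All in vivo arrays lay below all WT1-negative arrays, and the WT1-positive groups overlapped because WT1-high replicate 29 was at the level of WT1-intermediate cells. Hmox1 was 4.77-fold lower in WT1-high than in WT1-negative cells (log2 difference -2.25 ± 0.58, SE; adjusted p 0.00597, limma, Benjamini-Hochberg). In WT1-intermediate cells the difference was -1.04 ± 0.58 (SE) and was not called (adjusted p 0.143, limma, Benjamini-Hochberg). It was called when only these groups were fitted (adjusted p 0.0206, limma, Benjamini-Hochberg), under median scaling (-1.77; 0.0114), without WT1-high replicate 29 (0.029) and without the arrays numbered 29 and 30 (0.036), the last chosen after seeing the data.

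Within animals, Hmox1 was 3.70-fold lower in the WT1-high than in the WT1-intermediate array numbered 1 and 3.50-fold lower in that numbered 8. The arrays numbered 29 and 30 differed by only 0.07 on the log2 scale. The mean difference was -1.21 (95% confidence interval -2.48 to 0.06; adjusted p 0.318, limma, Benjamini-Hochberg). It was called without WT1-high replicate 29 (-1.98; adjusted p 0.0377, limma, Benjamini-Hochberg) and with a fixed replicate block by label numbers (-1.85; 0.00949), in which 29 and 30 are no pair. With these taken as 1 animal, the adjusted p was 0.06 (limma, Benjamini-Hochberg).

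The summed macrophage intensity stood in the same order of groups as Hmox1 without overlap, though its single markers did not share 1 order. Of the 14, 7 (the C1q genes, Lyz2 and Cd68 among them) had their highest mean in WT1-negative and 7 (Adgre1, Csf1r, Clec4f, Marco, Vsig4, Ptprc and Mpeg1) in WT1-intermediate cells, and the median log2 difference of the list for WT1-intermediate against WT1-negative was 0.15. On the arrays numbered 29 and 30, where Hmox1 hardly differed, the sum was 5137 and 15882. WT1-high replicate 29 had the lowest macrophage sum of all arrays and the highest Hmox1 of its group. Of the 14 macrophage markers, WT1-high arrays had 8 called lower and none higher when set against WT1-intermediate arrays. Against WT1-negative cells 2 were called higher and 8 lower in WT1-high, and 5 higher and 4 lower in WT1-intermediate cells. Their part in the Hmox1 difference was not tested.

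**Figure D3:**
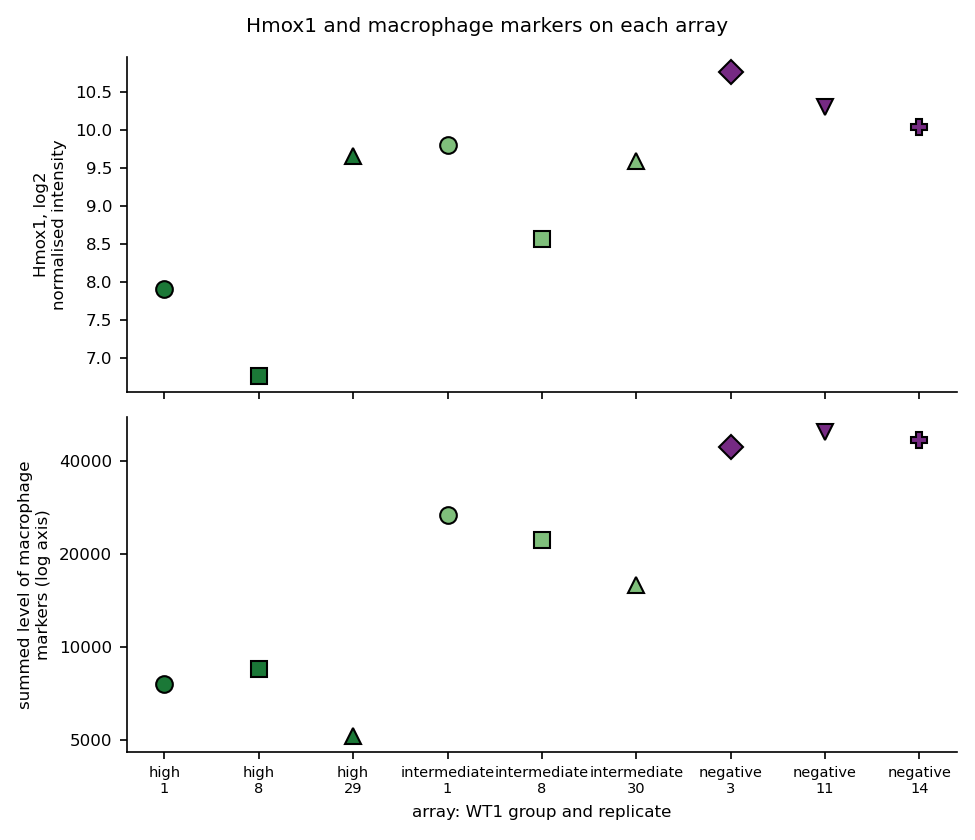
Hmox1 log2 normalised intensity (top) and the summed normalised intensity of 14 macrophage markers (bottom, log axis) on each of the 9 arrays (horizontal axis, group and replicate). Each point is 1 array. Both are highest on WT1-negative arrays, and WT1-high replicate 29 has an Hmox1 level of 9.65 and a macrophage sum of 5137.

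WT1-high replicate 29 stood out in several of the 10 genes, while the count for WT1-intermediate replicate 30 was near the share over all probes. WT1-high replicate 29 was the highest of its group for 7 of the 10 genes, against 33.3% of all tested probes. WT1-intermediate replicate 30 was the highest for 4 of the 10 genes, against 30.5%, and replicates 1 and 8 of its group for 3 each. The 4 genes of replicate 30 (Gclm, Txnrd1, Srxn1 and Gpx3) were also highest on replicate 29. These arrays had the fewest detected probes of their groups, 17253 and 17581. The hepatocyte sum of WT1-intermediate replicate 30 was the highest of its group (2029), and that of WT1-high replicate 29 (2514) was below that of replicate 8 (2692). Any part of these features was not tested. With both arrays left out, an alternative chosen after seeing the data, 5 genes were called against WT1-negative in WT1-high cells (Gclc was lost) and 6 in WT1-intermediate cells (Hmox1 was gained).

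**Figure D4:**
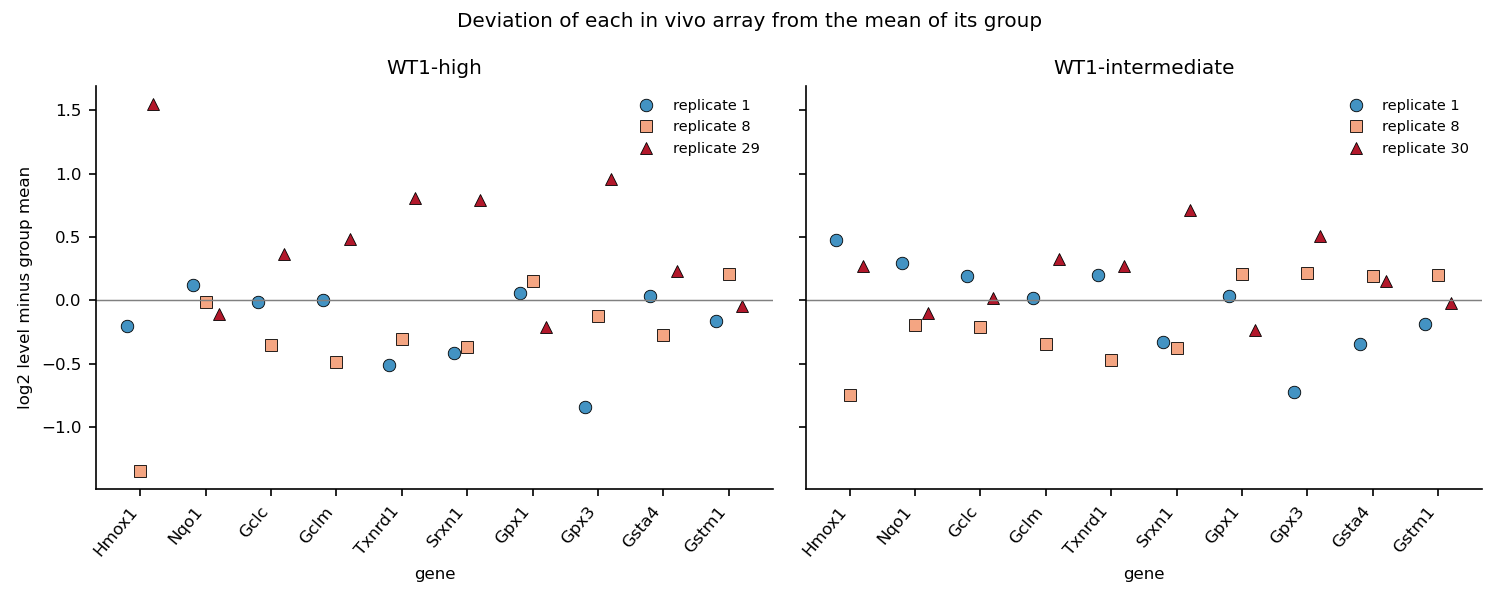
Deviation of each in vivo array from the mean of its group (vertical axis, log2) for the brightest probe of each of the 10 genes (horizontal axis), with WT1-high arrays on the left and WT1-intermediate arrays on the right. Shapes are replicate numbers. Replicates 29 and 30 lie above the mean of their groups for Hmox1, Gclc, Gclm, Txnrd1, Srxn1, Gpx3 and Gsta4, and below it for Nqo1, Gpx1 and Gstm1.

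The wider system was described by 11 lists with 111 genes, of which 94 could be tested. For WT1-high against WT1-intermediate, 1 was called higher and 5 lower (0.904% and 2.64% of all probes). Fech, which completes haem synthesis, was higher by 0.81. The lower genes were the iron exporter Slc40a1 (-1.84), the NADPH oxidase subunit Ncf4 (-1.33), prostaglandin D synthase Hpgds (-1.24), transketolase Tkt (-0.85) and biliverdin reductase B, Blvrb (-0.69). Their adjusted p lay between 0.00919 and 0.0293 (limma, Benjamini-Hochberg). All 5 were also lower in WT1-high than in WT1-negative cells. The part of macrophages in these differences was not tested. Under median scaling, which shifted the median of all probes in this comparison from 0.05 to 0.45, 16 were called higher and 1 lower.

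Against WT1-negative cells, 29 of the 94 genes were called higher and 34 lower in WT1-high cells, with a median of -0.16, where 26.5% of all probes were called higher and 33.1% lower. In WT1-intermediate cells 26 were called higher and 37 lower, with a median of -0.09, where the shares over all probes were 24.4% and 33.6%. These shares are the background for the counts of every list that follows, and no list was tested against them. Directions were mixed within most lists. Under median scaling, which moved the median of all probes in the second comparison from -0.13 to -0.44, the latter counts were 12 and 44.

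Among the transferases, 9 of 21 were called higher and 4 lower in WT1-high cells, and 8 and 6 in WT1-intermediate cells (5 and 6 under median scaling). The largest rises were in Gstt1 (3.65 in WT1-high, 3.44 in WT1-intermediate), Gsta3 (3.37 and 3.23), Mgst2 (2.50 and 2.68) and Gstt3 (2.53 and 2.09), with adjusted p of at most 6.8e-06 (limma, Benjamini-Hochberg). Hpgds, a transferase of haematopoietic cells, fell by 4.21 and 2.97. It was above background on 1 of 3 WT1-high arrays.

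In the glutathione synthesis and recycling list 2 of 6 tested genes were called higher and 1 lower in each WT1-positive group. Oplah, which returns glutamate from 5-oxoproline, rose by 2.67 in WT1-high and by 1.92 in WT1-intermediate cells. Among 17 thioredoxin and peroxiredoxin genes, 4 were called higher and 7 lower in WT1-high, and 4 and 9 in WT1-intermediate cells. Txn1, the cytosolic substrate of thioredoxin reductase 1, was higher by 2.17 and 2.70 in the same direction as Txnrd1. Of the 3 other glutathione peroxidases tested, 2 were called higher and 1 lower in WT1-high and 1 and 1 in WT1-intermediate cells. Sod1, Sod2 and Sod3 were called higher in both groups, by 0.60 to 1.43, and catalase lower by 0.53 and 0.96. Under median scaling none of these dismutases was called in WT1-intermediate cells, and the catalase call in WT1-high cells was lost (adjusted p 0.185), as it was without the arrays numbered 29 and 30 (0.0529; limma, Benjamini-Hochberg). In the list of 8 other NRF2 targets, 2 were called higher and 2 lower in WT1-high, and 1 and 2 in WT1-intermediate cells.

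Of 10 regulators of NRF2, Maff, Mafk, Bach1, Nfe2l1 and Sqstm1 were called higher in both WT1-positive groups and none lower. Maff, a small MAF protein that pairs with NRF2, differed by 2.46 and 2.24, and Bach1, a repressor that competes with it, by 1.14 and 1.33. Mafk was above background on no WT1-negative array and passed the filter on in vivo arrays alone. Its mean was at least 3.16-fold and 3.49-fold higher, bounds that leave out the spread between arrays. NRF2 itself (Nfe2l2) differed by -0.19 and -0.30 and Keap1 by 0.09 and 0.13, and neither was called. Under median scaling the counts were 4 and 0 in WT1-high and 2 and 3 in WT1-intermediate cells, with Nfe2l2 called lower in the latter (-0.97; adjusted p 0.0479, limma, Benjamini-Hochberg).

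Of 6 enzymes that supply NADPH to these systems, 5 were called lower for WT1-high and 4 for WT1-intermediate (33.1% and 33.6% of all probes), with G6pdx (-1.98 and -1.87), the entry enzyme of the pentose phosphate pathway, and Idh1 (-1.91 and -2.03) the furthest. Malic enzyme Me1 was called higher in both (1.32 and 1.00), and under median scaling in WT1-high cells only. Of the 9 haem and iron genes, 6 and 7 were called lower and 1 higher in each group. The lower ones included the transferrin receptor Tfrc (-3.03 and -2.98), Slc40a1 (-3.00 and -1.16) and both biliverdin reductases, Blvra (-1.27 and -0.86), which reduces the biliverdin made by haem oxygenase, and Blvrb (-2.40 and -1.71). Under median scaling the counts were 5 and 7 lower and none higher. Among 5 NADPH oxidase genes 4 and 3 were called lower and none higher. Of 5 genes for selenoprotein synthesis or transport 3 were called lower in each group and none higher, with Selenop at -3.09 and -2.73.

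**Figure D5:**
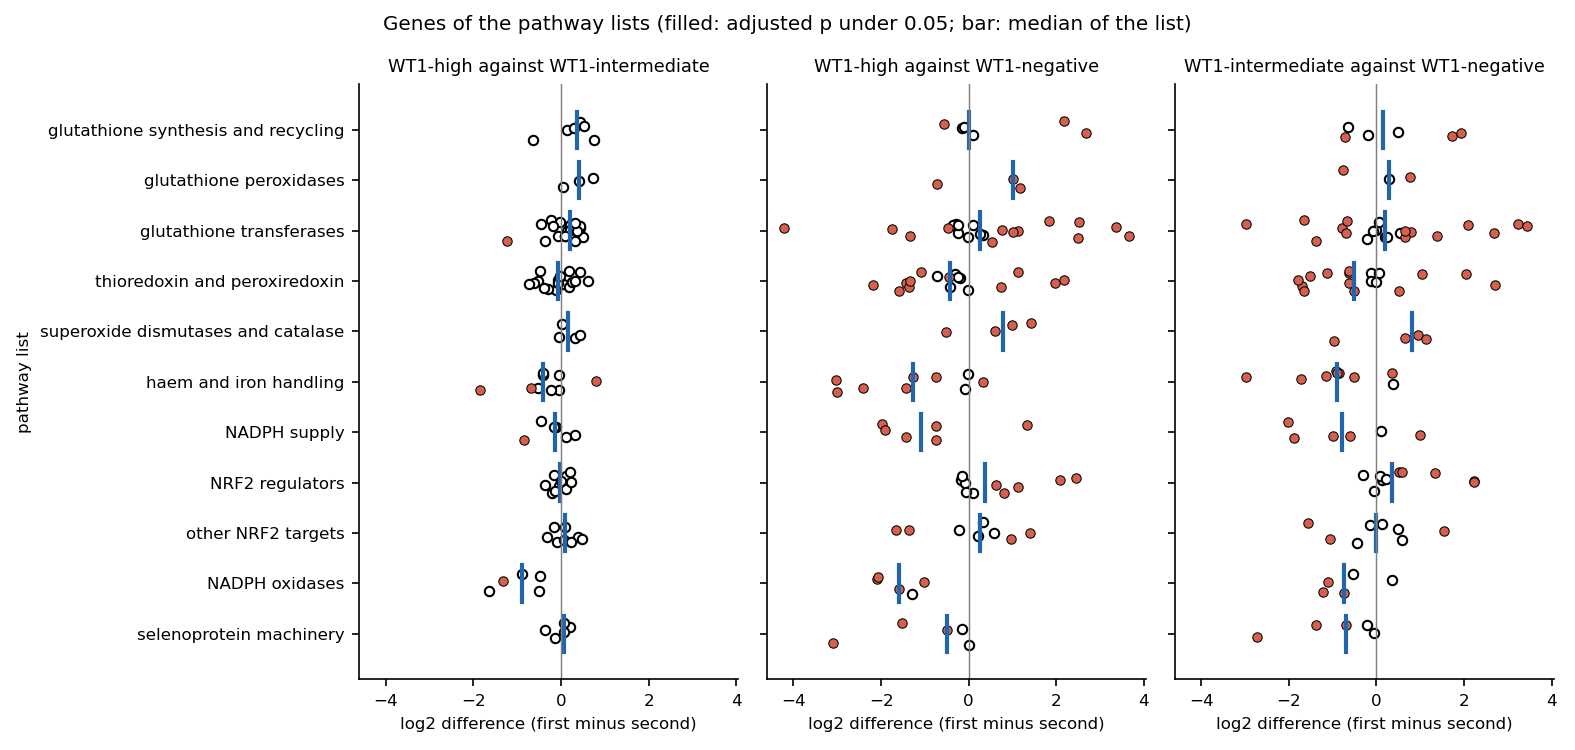
Log2 difference between groups (horizontal axis, first group minus second) for the 94 tested genes of 11 lists (vertical axis), in the 3 comparisons. Points are genes, filled where the adjusted p by limma is under 0.05, and vertical bars are list medians. Filled points lie on both sides of 0 in most lists against WT1-negative cells, while NADPH supply, haem and iron, NADPH oxidase and selenoprotein genes lie mostly below it.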

How the data were processed

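Per the authors' methods, the deposited intensity values were unnormalised summary probe profiles from BeadStudio, each with a deposited detection p-value. Normalisation and tests used limma 3.58.1 under R 4.3.3. The intensities went through neqc (normexp from 936 negative controls, offset of 16, quantile normalisation, log2), after the outline of the study. A probe was kept where 3 or more of the 9 arrays had a detection p under 0.05, and 3 groups were fitted together without a block (residual df 6, prior df 5.19). A gene was given by its brightest kept probe. P-values set a difference against the spread between these arrays, whose number limits the precision. The fit without a block treated in vivo arrays of the same animal as independent. The column of the WT1-intermediate array labelled 30 carried the number 29 and was taken as replicate 30, which the joined table bore out (largest difference 0). Its 2 detection p columns were not used, and the share of its negative controls at least as bright as the probe took their place (on the other arrays the 2 measures differed by at most 0.0011).

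Deviations from the group mean correlated at 0.35 for the arrays numbered 1, 0.34 for 8 and 0.47 for 29 with 30, and at -0.39 to 0.03 for other combinations. With the 3 animals of the study, the numbers were taken as pairs. The fixed block by label numbers and the random block kept 29 and 30 apart. The members, lists and named genes (the 5 largest called rises and falls in each comparison, and regulators, NADPH and selenoprotein genes) were chosen with earlier results of these data known. List genes were matched by symbol (156) or Entrez gene ID (4), 24 had no kept probe and 4 no probe. The steps were tested on simulated data. Alternatives covered normalisation, offset, filter, probe, blocks and each array left out.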

Additional observations from a re-analysis of the deposited data

How the results depend on the processing

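Of the single-probe differences recomputed under the alternatives, 654 kept their direction and side of the threshold, 18 became called, 11 lost their call and 33 changed sign, the last all in differences that were not called. The number of genes called between WT1-high and WT1-intermediate was 0, but 2 under median scaling (Srxn1 and Gsta4), 1 with the fixed replicate block by label numbers (Hmox1), and 0 to 1 with each array left out. Against WT1-negative cells, the counts of 6 and 5 became 3 and 2 with detection on all 9 arrays, which left 7 genes to test, 3 and 3 with at least a 2-fold change, and 5 to 6 and 4 to 6 with each array left out. Median scaling shifted all probes between the WT1-positive groups, with 2563 probes called higher and 121 lower against 186 and 544, and from 5029 and 6906 to 2545 and 8456 between WT1-intermediate and WT1-negative cells. Its sign changes there were in Gclm (0.65), Gpx1 (0.31) and Txnrd1 (0.39) in the first comparison, and in Gpx3 (-0.0048) and Srxn1 (-0.62 for ILMN_2677772 and -0.12 for ILMN_1229994) in the last. Cyclic loess gave -0.12 for the dimmer Gstm1 probe between the WT1-positive groups.

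In that comparison the replicate block by label numbers gave -0.15 for Gclc and -0.031 for the dimmer Gstm1 probe, and the random replicate block -0.024 and -0.0024. Besides the Hmox1 and Gpx1 calls given above, the blocks changed no call among these genes. A fixed block was fitted for this comparison only, since no WT1-negative array shares an animal with another. Leaving out each array gave -0.16 to 0.20 for Gclc, -0.28 to 0.21 for Gclm, -0.21 to 0.0069 for Gpx1, -0.025 to 0.18 and -0.12 to 0.093 for the Gstm1 probes, -0.083 to 0.68 for Srxn1 (ILMN_1229994) and -0.59 to 0.067 for Txnrd1. Against WT1-negative cells it gave -0.84 to 0.13 for Gpx3 and -0.22 to 0.47 for Srxn1 (ILMN_2667346) in WT1-high, and -0.25 to 0.30 for Srxn1 (ILMN_2677772) in WT1-intermediate cells. Without both arrays 29 and 30, chosen after seeing the data, Gclc (-0.16) and the dimmer Gstm1 probe (-0.034) changed sign between the WT1-positive groups, as did Srxn1 in WT1-high (ILMN_2667346, -0.22) and in WT1-intermediate cells (ILMN_2677772, -0.25) against WT1-negative. The cause was not tested. A slide block was not run, since the headers used here give no slide. Signal near background limits Nqo1, Gclc, the dimmer Gstm1 probe and Txnrd1 in WT1-negative cells.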

Other observations

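Gene profiles most like those of the antioxidant enzymes were sought among 14649 genes, with each gene centred on its mean, by the root of the mean squared log2 difference across 9 arrays. Among the closest were Efna1 (0.12) for Gsta4, Traf4 (0.14) and Hdac11 (0.15) for Gstm1, Luzp1 (0.09) and Lsm5 (0.12) for Gclm, and F5 and Rpusd1 (0.07 each) for Gpx1. Txnrd1 was closest to Cox7b (0.19) and LOC100046796 (0.20), and Srxn1 to LOC100048726 (0.16) and Pscd2 (0.20). Nqo1 was closest to Stoml2 and Eif4el3 (0.08 each), and Gclc to EG329521 (0.06) and Ssbp1 (0.09). Hmox1 and Gpx3 had no close partner, with Pcp2 (0.47) and 1810058M03Rik (0.53) nearest to the former and Sytl2 (0.49) and Bdh2 (0.50) to the latter. The measure is small for any gene that varies little, and the 9 arrays share their group structure.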
